A study of Rattus norvegicus with 24 samples.

Results

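Protein phosphatases were followed in the hearts of rats that had received repeated instillations of particles or zinc into the airways. The genes were chosen by a symbol rule, which was set with earlier results of these data known. It takes every gene on the array whose symbol begins with Ppp1 to Ppp6, Ppm1, Ptpn, Ptpr (without Ptprc) or Dusp. Each gene was measured by its brightest probe set among those that carry a single gene symbol. This gave 115 of 10411 genes. Of these, 69 belonged to the serine/threonine class (11 catalytic subunits of the PPP family, 9 metal-dependent Ppm1 phosphatases and 49 regulatory or scaffold subunits), 32 to the tyrosine class (13 Ptpn and 19 Ptpr genes), and 14 to the dual-specificity class (6 MAP kinase phosphatases and 8 others). The symbol rule also brings in genes whose products are not phosphatases, such as Ptprcap, which encodes a small protein bound to the leukocyte phosphatase CD45.

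The hearts came from male Wistar Kyoto rats, and transcripts of left ventricle with septum were hybridised to Affymetrix Rat 230A arrays, 1 array for each of the 4 rats in 6 groups. The rats were 12 to 14 weeks old at the start and were instilled intratracheally once per week at 1 ml/kg, with necropsy 48 hours after the last instillation. The saline group served as the control. MSH rats received Mount St. Helens ash, which carries no water-soluble zinc or other metals. PM-HD rats received the whole suspension of oil combustion particles, with 14.5 μg of water-soluble zinc and 3.0 μg of nickel per mg. PM-LD rats received these particles at a lower dose, for which the labels state 7.25 μg of zinc and 1.5 μg of nickel per mg, and PM-L rats the filtered saline leachate of the particles, free of solids. Zinc sulfate rats received zinc alone, which the study matched to the soluble zinc of PM-HD and PM-L. Their labels state 14.5 μg/mL. At 1 ml/kg this is below the weekly zinc dose in the study's design, and the difference was not settled here. Arrays of the saline, MSH, PM-HD and zinc sulfate groups came from the 8-week exposure, and the number of weeks behind the PM-LD and PM-L arrays was not given in the sources used here.

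Phosphatases remove the phosphate groups that kinases add to proteins. The serine/threonine enzymes PP1 and PP2A work as a few catalytic subunits that pair with many regulatory subunits, which choose the target and the place in the cell. In heart muscle they act on phospholamban, the ryanodine receptor and contractile proteins. Calcineurin, the calcium-activated phosphatase of the Ppp3 genes, turns on NFAT transcription factors and is known for its role in cardiac hypertrophy. Ppm1 phosphatases need magnesium or manganese, tyrosine phosphatases use a reactive cysteine and are inhibited by zinc ions in purified form, and the dual-specificity MAP kinase phosphatases are short-lived brakes on ERK, JNK and p38 that are themselves transcribed quickly after stimulation.

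The deposited values are linear signals, each array scaled to the same trimmed mean of 500.1, and the median signal of an array ran from 206.1 to 278.3. Dividing the signal of the Gapdh control at the 3′ end by that at the 5′ end gives the Gapdh ratio, a common measure of RNA quality that is higher for degraded RNA. It ran from 1.11 to 5.62, with the lowest and highest array both in PM-L. It was above 3 on 1 zinc sulfate, 1 PM-LD and 1 saline array and on 2 arrays each of MSH, PM-HD and PM-L. Atrial transcripts (Nppa, Myl7, Sln and Myl4) also varied, with a mean log2 value from 7.81 to 13.2. Cardiomyocyte markers were abundant on every array: Myh6 was at 21870 or above and Myl2 at 19810 or above. Of the phosphatase genes, 17 had a mean signal under 100, where MAS5 signals are least precise, and 74 were brighter than the median of all probe sets.

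A gene is named as called here when limma gave an unadjusted p under 0.05 together with a rise or a fall of more than 25%. Fold changes are differences of log2(signal + 16) after quantile normalization. MSH, PM-HD, zinc sulfate and saline were fitted together on 16 arrays, and PM-LD and PM-L against saline on all 24. All 5 comparisons with saline share the same 4 control rats. Rats are numbered by the replicate numbers of their labels, and nothing in the sources used here says that a number links rats of different groups. With 4 rats against 4, the smallest p of an exact permutation test is 0.0286. All tests are two-sided. Each call was recomputed without each array of its groups and under other settings, which included the log2 Gapdh ratio or the mean log2 value of the atrial transcripts as a covariate, the replicate number as a block, and a prior for the spread that follows the signal level (the trended robust prior). The median half-width of the 95% confidence interval of a phosphatase gene's log2 fold change was 0.48 with 16 arrays and 0.51 with 24.

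In each comparison the share of phosphatase genes called lay close to that of all genes. With MSH 3 of 115 were called against saline, where 2.99% of all genes were, 1 higher (1.53% of all genes) and 2 lower (1.46%). With PM-HD 3 were called (against 3.32%), 0 higher (1.91%) and 3 lower (1.41%). With PM-LD 4 were called (against 3.53%), 1 higher (1.79%) and 3 lower (1.75%). With PM-L 3 were called (against 3.84%), 2 higher (2.18%) and 1 lower (1.66%). With zinc sulfate 4 were called (against 4.01%), 3 higher (2.08%) and 1 lower (1.93%). The direct comparison of zinc sulfate with MSH, zinc without particles against particles without soluble zinc, called 7 (against 6.07%), 4 higher (3.18%) and 3 lower (2.89%). The moderated F test across the 6 groups, at p under 0.05, called 5 (against 4.43%). After Benjamini-Hochberg adjustment over 15866 probe sets in limma, 0 phosphatase genes passed 0.05 in any of these tests (over all probe sets 2 did with PM-L, 0.0126%, and 0 elsewhere), whereas 3 to 7 had an unadjusted p under 0.05 in a comparison. In all, 101 of the 115 genes were called in no comparison. This count over the comparisons together was not made for all genes, so no share stands beside it.

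The classes are small beside these shares, and no class was tested against another. With zinc sulfate against saline (4.01% of all genes), 3 of 69 serine/threonine genes were called, 1 of 32 tyrosine genes, which was Ptprcap, and 0 of 14 dual-specificity genes, and against MSH (6.07%) 6, 1 and 0. The median log2 fold change of the serine/threonine class lay between −0.033 and 0.037 and that of the tyrosine class between −0.046 and 0.031, beside −0.015 to 0.001 for all genes. The dual-specificity class was at 0.002 with MSH, −0.082 with PM-HD, −0.054 with PM-LD, −0.079 with PM-L and −0.187 with zinc sulfate, the median farthest from 0 among the 3 classes. Only 3 of the 14 dual-specificity genes were above 0 with zinc sulfate, compared with 42 of 69 serine/threonine and 17 of 32 tyrosine genes. No test was made of these medians.

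**Figure D1:**
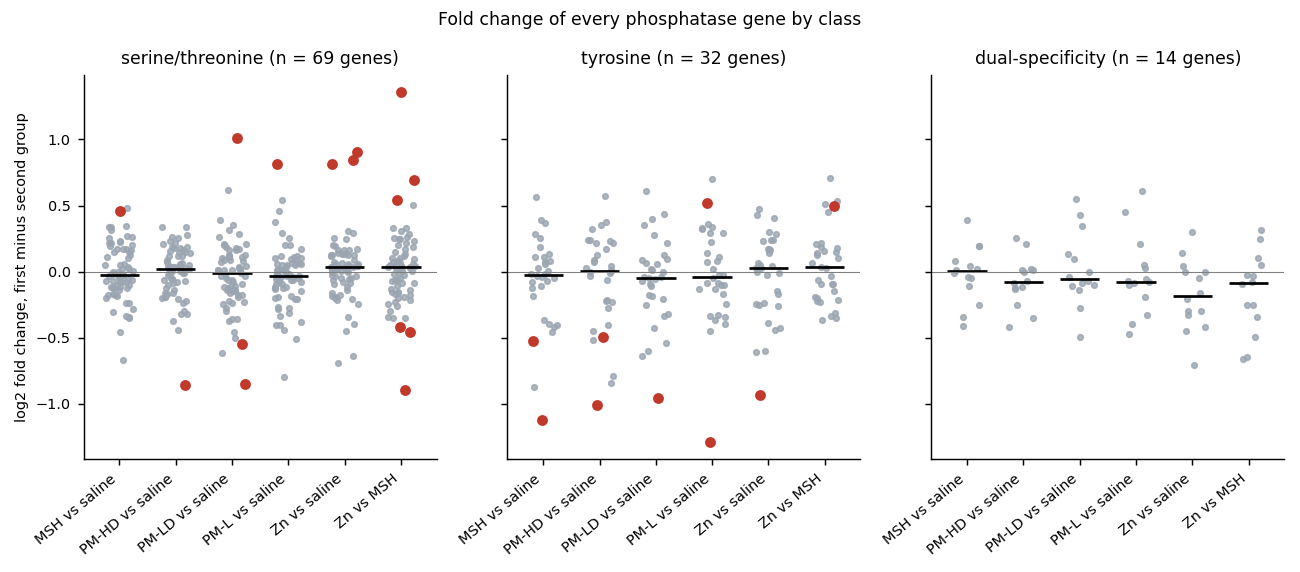
Log2 fold change (vertical axis) of each phosphatase gene in 6 comparisons (horizontal axis), in 1 panel per class. Each point is 1 gene, red points were called, and the black bar is the class median. The medians lie near 0 apart from the dual-specificity class with zinc sulfate, at −0.187, and the red points are found only in the serine/threonine and tyrosine panels.

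Among the 11 catalytic subunits, Ppp3cc, the gamma catalytic subunit of calcineurin, stood out with zinc sulfate. Its signal was 322.6, 290.4, 289.4 and 289.0 in the 4 zinc sulfate rats and 181.0, 187.0, 109.2 and 210.9 in the saline rats. All 4 zinc sulfate values lay above every saline value and above all MSH values, which were 247.5, 213.1, 210.5 and 132.2. Ppp3cc was higher with zinc sulfate by 0.84 on the log2 scale against saline (SE 0.23, unadjusted p = 0.0025, limma adjusted p = 0.856, exact permutation p = 0.0286) and by 0.70 against MSH (SE 0.23, p = 0.0093 in limma and 0.0286 in the exact test). Without any 1 array the first difference stayed between 0.65 and 0.93 and the second between 0.53 and 0.78, and both remained called. The moderated F test across the 6 groups did not call Ppp3cc (unadjusted p = 0.062).

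In the other groups Ppp3cc overlapped the saline range. PM-HD rats had 244.3, 116.7, 237.8 and 254.2, PM-LD rats 252.8, 136.0, 154.0 and 282.8, and PM-L rats 218.4, 184.9, 350.4 and 184.2. Log2 fold changes were 0.15 with MSH, 0.26 with PM-HD, 0.26 with PM-LD and 0.38 with PM-L (SE 0.23 to 0.26), none of them called. The gene has a second probe set that was close to the noise, at a mean signal of 8.98, where zinc sulfate differed from saline by −0.32 (SE 0.27). When both probe sets were averaged, the difference was 0.26 (SE 0.17) against saline and 0.21 (SE 0.17) against MSH, no longer called. Without the arrays of a Gapdh ratio above 3, the difference from MSH was 0.64 (SE 0.31), no longer called.

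The alpha and beta catalytic subunits of calcineurin showed smaller differences. Ppp3ca was at 1758.3, 2219.9, 2336.4 and 1847.6 in saline and 2265.8, 1932.3, 2789.7 and 2272.0 with zinc sulfate, and these ranges overlapped (0.14, SE 0.18). With MSH it was at 2129.2, 2382.0, 2674.0 and 2716.4 (0.31, SE 0.18, exact permutation p = 0.0571). Ppp3cb, measured by its brightest probe set, was at 1619.1 to 1733.9 in saline, 1390.1 to 1563.5 in MSH and 1435.6 to 1581.2 in PM-HD. Both particle groups lay below the saline range in raw signal, although not after normalization, but the differences of −0.18 and −0.14 (SE 0.13) were small and not called (exact permutation p = 0.0571 for each).

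Dimmer probe sets gave calls of their own. Of the 115 genes, 29 had 35 further probe sets with a single symbol, and these gave 19 calls over the 6 comparisons, on 10 probe sets of 9 genes. This is 9.05% of their tests, where 5.92% of the tests of all dimmer probe sets were called. The brightest probe set of the same gene was called in 0 of the 19. Ppp3cb, Ppp3r1 and Ptprs, picked after their values were seen, are described in full. The others were Ptpn3, given with the tyrosine phosphatases, Ppp1r14b (0.77 to 0.85 with PM-HD, PM-LD and zinc sulfate), Ppp4r1 (−0.505 with PM-HD), Ppm1f (0.59 with PM-LD), Ppp1r12a (0.62 with PM-L) and Ppp1r2 (0.58 with PM-L).

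The dimmer Ppp3cb probe set differed from the brightest one. It read 186.8, 258.2, 222.7 and 265.2 with zinc sulfate, 139.9, 127.1, 150.3 and 133.4 in MSH, and 210.2, 171.9, 155.9 and 199.2 in saline. Every zinc sulfate rat was above every MSH rat. The difference was 0.85 (SE 0.18, unadjusted p = 0.00024, limma adjusted p = 0.393), and it was called without any 1 array and under each of the 11 other settings tried. Against saline, zinc sulfate was higher by 0.40 (exact permutation p = 0.0857) and MSH lower by 0.44 (exact permutation p = 0.0286), and each of these was lost without some single arrays. For MSH these were MSH rat 1 or 2 or saline rat 1, and for zinc sulfate they were zinc sulfate rat 2 or 4 or saline rat 2, 3 or 4. Both calls also ended in a fit of all 24 arrays (SE 0.25). The MSH call ended too without the arrays of a Gapdh ratio above 3 (−0.42, SE 0.22), with that ratio as a covariate (−0.41, SE 0.16) and with a pseudocount of 64 (−0.35), and that of zinc sulfate with only the pair of groups in the fit (SE 0.20). Against saline this probe set was at 0.12 with PM-HD (SE 0.18), 0.49 with PM-LD (SE 0.25) and 0.30 with PM-L (SE 0.25), none of them called.

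Ppp3r1, which encodes the regulatory calcineurin B subunit, had a dim probe set with the same order of the MSH, saline and zinc sulfate means. It read 12.9, 10.5, 9.4 and 25.5 in MSH and 55.2, 44.4, 44.7 and 116.7 with zinc sulfate, with no overlap, and 44.4, 57.1, 64.4 and 32.1 in saline. Zinc sulfate was above MSH by 1.50 (SE 0.37, p = 0.0010, limma adjusted p = 0.483), and MSH below saline by 1.13 (SE 0.37, p = 0.0077), each with an exact permutation p of 0.0286. The MSH signals are near the noise, so the size of these differences is uncertain. Over the settings and arrays left out the first ran from 0.77 to 2.29 and the second from −1.83 to −0.54, and the second was not called in the fit of all 24 arrays (SE 0.62). The brightest Ppp3r1 probe set differed by only 0.13 and −0.10 in the same comparisons. Which probe set follows the transcript better was not tested.

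The promoter of Ppp3cb is shown because it holds a core of the metal response element, the sequence that the zinc-sensing transcription factor MTF-1 binds. RefSeq promoters of assembly GRCr8, the 250 bases before each gene's start, were searched on both strands for TGCACNC and TGCGCNC, which differ in the fourth base, so that no site matches both. At least 1 of these occurred in 38 of 95 phosphatase promoters (40%) and in 20.6% of 33469 promoters in all. The phosphatase promoters had a median GC content of 65.2% and 20 CpG sites, compared with 51.2% and 5 for all promoters. TGCACNC alone occurred in 11.6% and 10.3%, and TGCGCNC, which contains a CpG, in 28.4% and 11.8%. In the Ppp3cb sequence the capitals mark the match, which begins 242 bases before the start. A match is a description of the letters, and no entry was found here for Ppp3cc.
Ppp3cb promoter, chr15:3809012-3809261 (+ strand): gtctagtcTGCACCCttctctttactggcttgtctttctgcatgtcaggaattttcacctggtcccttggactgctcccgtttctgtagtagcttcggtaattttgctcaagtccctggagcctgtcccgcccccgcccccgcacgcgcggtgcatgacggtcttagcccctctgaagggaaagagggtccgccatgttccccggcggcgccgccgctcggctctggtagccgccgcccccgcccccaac

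No catalytic subunit of PP1 or PP2A was called in any comparison by its brightest single-symbol probe set. A brighter probe set shared by Ppp2ca and Ppp2cal1, at a mean signal of 1885, was left out because it carries both symbols. With zinc sulfate it was higher than with MSH by 0.57 (SE 0.26, exact permutation p = 0.114), which passes the call rule, and it was not called against saline. Ppp1cc, the gamma subunit of PP1, lay at 2690.0 to 2742.6 in MSH and 2085.3 to 2591.7 in saline. The groups did not overlap (exact permutation p = 0.0286), but the difference of 0.22 (SE 0.15) was not called. Ppp1ca differed from saline by −0.13 to 0.04 and Ppp2ca by −0.10 to 0.04 over the 5 exposures, and neither was called. Ppp1cb was low in saline rat 4, at 425.7, whereas the other saline rats were at 1307.0 to 1498.2, and its differences of 0.29 to 0.46 from saline were not called. With the Gapdh ratio as a covariate it was called higher with PM-HD (0.51) and PM-L (0.48). Ppp2cb ran from −0.28 to 0.05 and was high in zinc sulfate rat 3, at 2281.6 against 1270.8 to 1353.9 in the other zinc sulfate rats. Ppp4c stayed within −0.14 and 0.12, and Ppp6c ran from −0.44 with PM-L (SE 0.26) to 0.06. Without PM-L rat 2 or saline rat 4 the PM-L difference of Ppp6c was −0.71 and −0.62 and called.

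Ppp5c, which encodes PP5, a phosphatase bound to the heat shock protein HSP90, separated zinc sulfate from MSH. Its signal was 916.2, 793.8, 648.4 and 916.5 with zinc sulfate and 451.8, 626.1, 676.9 and 538.8 in MSH. Zinc sulfate rat 3 fell inside the MSH range and the others lay above it. The difference was 0.54 (SE 0.23, p = 0.031, exact permutation p = 0.0571). It was no longer called without MSH rat 1 (0.42) or 4 (0.51), or without zinc sulfate rat 1 (0.48), 2 (0.54) or 4 (0.47), or without the arrays of a Gapdh ratio above 3 (0.45, SE 0.22). Neither group was called against saline, where Ppp5c was at 584.5 to 862.1.

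Ppm1a encodes the magnesium-dependent phosphatase PP2C alpha that acts on p38, JNK and SMAD proteins. Among the brightest probe sets of the 115 genes it gave the largest difference between zinc sulfate and MSH. It was at 513.8, 834.9, 415.3 and 925.1 with zinc sulfate, at 194.6, 191.1, 355.3 and 309.3 in MSH, and at 582.0, 406.8, 326.2 and 181.6 in saline. All zinc sulfate rats lay above all MSH rats, and the saline range overlapped both. Zinc sulfate exceeded MSH by 1.36 (SE 0.40, unadjusted p = 0.0041, limma adjusted p = 0.502). This difference ran from 1.18 to 1.60 without any 1 array and from 1.11 to 1.52 under the 12 other settings, and it was called in each.

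Against saline Ppm1a was called higher with zinc sulfate, by 0.91 (SE 0.40), and with PM-LD, by 1.01 (SE 0.45), each with an exact permutation p of 0.143. PM-LD rats had 533.3, 1058.0, 377.9 and 1135.4, so that rats 2 and 4 were far above the saline range and the others within it. The zinc sulfate call ended without zinc sulfate rat 2 (0.77) or 4 (0.72) or saline rat 3 (0.89) or 4 (0.56), and the PM-LD call without PM-LD rat 2 (0.81) or 4 (0.78) or saline rat 3 (0.99) or 4 (0.67). Without the arrays of a Gapdh ratio above 3 zinc sulfate was at 0.80 (SE 0.37) and not called. That call also ended with all 24 arrays (SE 0.45), with the pair of groups alone (SE 0.42) and with the replicate block (SE 0.42), and the PM-LD call with the pair of groups alone (SE 0.47). With PM-L, rat 2 was at 1090.2 and the other rats at 357.7 to 414.3, and with PM-HD rat 2 was at 619.9 and the others at 269.9 to 323.2. Neither of these groups was called (0.54, SE 0.45, and 0.02, SE 0.40).

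High Ppm1a values occurred on arrays of low Gapdh ratio. The 4 highest values, 925.1 to 1135.4, came from arrays with ratios of 1.11, 1.22, 1.22 and 1.43. Across all 24 arrays and within groups, Ppm1a fell by 0.68 on the log2 scale for each doubling of the ratio (SE 0.10, limma adjusted p = 1.35e-05). MSH arrays had ratios of 2.02 to 3.31, and zinc sulfate arrays of 1.43 to 1.52 for 3 rats and 5.58 for rat 3. With the ratio as a covariate the difference between zinc sulfate and MSH was 1.11 and still called. The other 8 Ppm1 genes had no call in any comparison. The promoter of Ppm1a is shown as that of the gene with the largest difference between zinc sulfate and MSH by brightest probe set. It held neither metal response element core nor the cyclic AMP response element TGACGTCA nor the E-box CACGTG.
Ppm1a promoter, chr6:97178893-97179142 (+ strand): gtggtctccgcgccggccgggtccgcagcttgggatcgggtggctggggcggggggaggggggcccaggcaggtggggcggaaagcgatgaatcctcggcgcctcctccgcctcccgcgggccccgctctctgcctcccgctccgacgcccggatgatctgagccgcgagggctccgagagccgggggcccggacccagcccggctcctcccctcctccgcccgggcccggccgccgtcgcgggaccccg

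Regulatory subunits of PP1 supplied most of the remaining serine/threonine calls. Ppp1r3b, the glycogen-targeting subunit that brings PP1 to glycogen, was called higher with zinc sulfate and PM-L and had the lowest p of the F test among the phosphatase genes (limma adjusted p = 0.905). Its dim signal was 46.2, 34.7, 14.8 and 39.6 in saline, 46.5, 60.7, 65.3 and 82.0 with zinc sulfate, and 69.6, 84.2, 95.6 and 43.6 with PM-L. In raw signal no zinc sulfate rat overlapped saline, although the closest pair was 46.5 and 46.2, and 1 PM-L rat did. The differences were 0.81 (SE 0.35) and 0.81 (SE 0.33), each with an exact permutation p of 0.0571. PM-LD (0.62, SE 0.33) was called without PM-LD rat 4 (0.78) or saline rat 1 (0.79) and with the replicate number as a block, MSH (0.48, SE 0.35) was not called, and PM-HD had 35.8, 56.0, 18.1 and 4.6 (−0.23, SE 0.35).

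Saline rat 3, at 14.8, weighed on these calls. Without it, zinc sulfate differed from saline by 0.59 (SE 0.36) and PM-L by 0.59 (SE 0.35), no longer called. The zinc sulfate call also ended without zinc sulfate rat 2 (0.80) or 4 (0.67) or saline rat 4 (0.82), and the PM-L call without PM-L rat 2 (0.70) or 3 (0.74). With a pseudocount of 1 neither was called (1.12, SE 0.60, and 1.11, SE 0.54), nor PM-L with the atrial covariate (0.68, SE 0.33).

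Ppp1r16b, also named TIMAP, a membrane-bound PP1 subunit rich in endothelial cells, was lower with zinc sulfate than with MSH. Zinc sulfate rats had 397.1, 338.5, 991.6 and 260.4, and MSH rats 1123.8, 697.8, 722.8 and 1021.2. Only zinc sulfate rat 3, with the highest Gapdh ratio of its group, lay within the MSH range. The difference was −0.89 (SE 0.34, p = 0.020, exact permutation p = 0.0857). It ended as a call without MSH rat 1 (−0.76) or zinc sulfate rat 2 (−0.79) or 4 (−0.68), and it was called in each of the 12 other settings, between −0.95 and −0.67. Against saline, at 631.7, 647.7, 786.2 and 987.2, zinc sulfate was at −0.69 (SE 0.34) and not called, and at −1.05 (SE 0.29) and called without zinc sulfate rat 3. It was also called with the Gapdh ratio as a covariate (−0.61), without the arrays of a ratio above 3 (−0.92) and with median centring (−0.68).

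Fibroblast markers were lower in the same comparison of zinc sulfate with MSH, where 2.89% of all genes were called lower. Of 6 fibroblast markers 3 were called lower, Lum (−0.61), Dcn (−0.52) and Col3a1 (−0.45, SE 0.21 to 0.23), and the median of the list was −0.43. The summed signal of the list was 17410 to 19790 in zinc sulfate rats and 19920 to 27770 in MSH rats, with no overlap. Smooth muscle markers were mixed. Of 5, Acta2 was called lower (−0.53, SE 0.24) and the others were not called. Myh11, Tagln and Cnn1 were at −0.43 to −0.14 and Des at 0.75 (SE 0.66). The sums of 4914 to 14670 with zinc sulfate and 5349 to 7167 in MSH overlapped, with the median higher with zinc sulfate (11330 and 7108). The part of both marker lists in the 7 calls between zinc sulfate and MSH was not tested.

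Other PP1 subunits were called in 1 comparison each. Ppp1r13l, which encodes iASPP, an inhibitor of p53, was at 606.2, 553.8, 760.1 and 758.2 in saline and 189.7, 710.3, 253.7 and 532.4 with PM-HD. PM-HD rats 1 and 3 were far below the other rats, and the difference of −0.86 (SE 0.31, exact permutation p = 0.114) was lost without either, at −0.57 and −0.67. It was lost as well without the arrays of a Gapdh ratio above 3 (−0.76, SE 0.46) and with the pair of groups alone (SE 0.38). Ppp1r16a, at 138.7, 284.6, 159.3 and 232.5 in saline and 62.3, 143.3, 94.9 and 113.7 with PM-LD, was lower by 0.85 (SE 0.35, exact permutation p = 0.0857), and overlapped in 1 pair of rats. That call ended without PM-LD rat 1 (−0.65) or 3 (−0.77) or saline rat 2 (−0.67), or without the arrays of a Gapdh ratio above 3 (−0.75, SE 0.41). Ppp1r12c, a myosin phosphatase subunit, was at 816.8, 1000.3, 1160.3 and 765.8 in saline and 567.1, 550.3, 895.3 and 479.9 with PM-LD. PM-LD rat 3 overlapped saline, and the difference of −0.55 (SE 0.24, exact permutation p = 0.0857) ended without PM-LD rat 1 (−0.51), 2 (−0.51) or 4 (−0.45) or saline rat 2 (−0.50) or 3 (−0.44).

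With all arrays and the settings of the main fits, subunits of PP2A were called only in comparisons that involved MSH. Ppp2r5c, the gamma B56 subunit, lay at 5089.1 to 5206.7 in the 4 MSH rats, a narrow range, and at 4376.2, 3833.8, 4293.0 and 4128.2 with zinc sulfate. The groups did not overlap, with zinc sulfate lower by 0.46 (SE 0.18, p = 0.024 in limma and 0.0286 in the exact test), and the call ended without zinc sulfate rat 2 (−0.40) or 4 (−0.42). A second, dimmer Ppp2r5c probe set, at a mean signal of 131.7, went the other way, by 0.42 (SE 0.68), and the mean of both probe sets gave −0.017 (SE 0.32) and was not called. Centring arrays on the median instead of quantile normalization gave −0.15 (SE 0.15), and the Gapdh ratio as a covariate gave −0.37, and neither was called. With PM-L the gene was at 3038.7, 3057.1, 3180.2 and 3919.5, with 3 of 4 rats below every saline rat, and differed by −0.40 (SE 0.19, exact permutation p = 0.0857), inside the fold limit and so not called. It passed the limit and was called without PM-L rat 3 (−0.44) or 4 (−0.51) or saline rat 1 (−0.51). It was also called with the Gapdh ratio as a covariate (−0.42), with median centring (−0.47) and without the arrays of a ratio above 3 (−0.61). Ppp2r2b, a B55 subunit best known from neurons, was near the noise: 34.9, 28.8, 51.5 and 26.8 in MSH, 22, 22.3, 10.6 and 23.6 in saline, and 17.7, 14.3, 17 and 22.3 with zinc sulfate.

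In raw signal MSH was above both other groups without overlap in Ppp2r2b, although after normalization the zinc sulfate and MSH values overlapped. MSH exceeded saline by 0.46 (SE 0.19, exact permutation p = 0.0286), and zinc sulfate was below MSH by 0.42 (SE 0.19, exact permutation p = 0.0571). The first call ended without MSH rat 3 (0.31) or saline rat 3 (0.32) or 4 (0.44), and the second without MSH rat 3 (−0.28) or zinc sulfate rat 1 (−0.42), 2 (−0.38) or 3 (−0.37). Both also ended with the atrial covariate, the replicate block, the trended robust prior and a pseudocount of 64 (0.21 and −0.20), and without the arrays of a Gapdh ratio above 3 (0.59, SE 0.27, and −0.52, SE 0.27), and the first with the pair of groups alone. Ppp2r5a, Ppp1r1a (PP1 inhibitor 1) and Ppp1r14c were called in no comparison, with log2 fold changes of −0.35 to 0.22. Of the 49 regulatory genes, 7 were called in at least 1 comparison, a count that was not made over all genes. Their subclass median lay between −0.034 and 0.025.

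**Figure D2:**
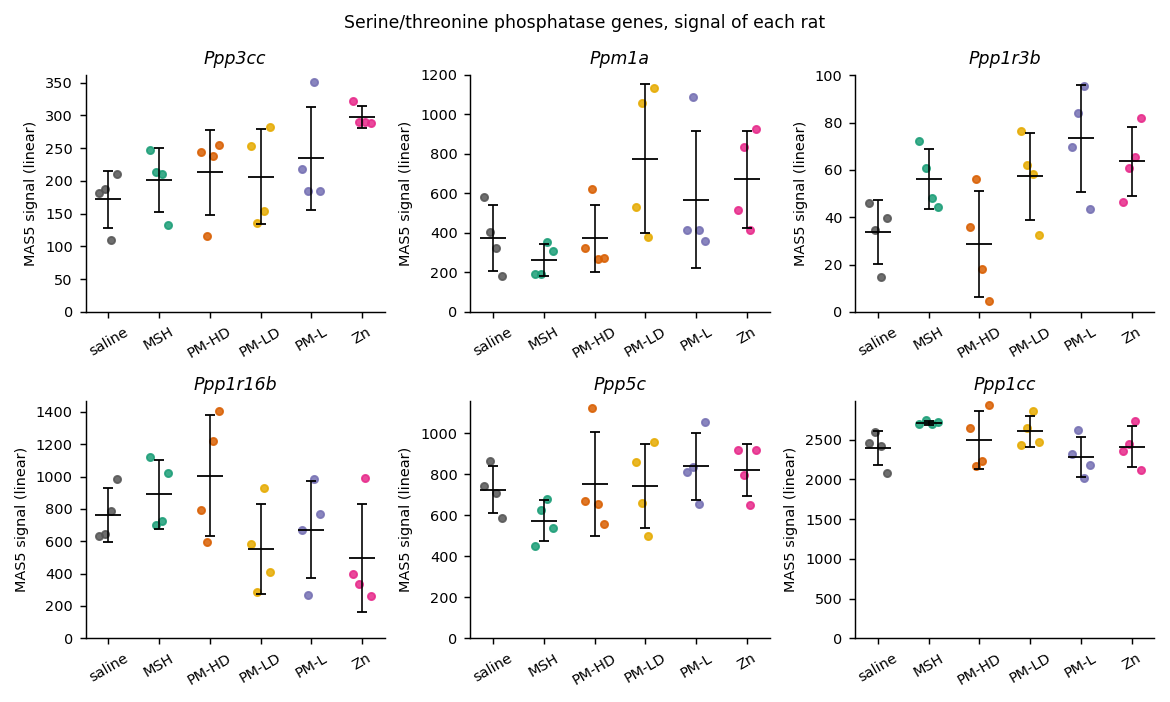
Linear MAS5 signal (vertical axis) of 6 serine/threonine phosphatase genes in the 6 groups (horizontal axis). Each point is 1 rat and the bars are the mean ± SD of 4 rats. The 4 zinc sulfate rats of Ppp3cc, at 289.0 to 322.6, lie above all saline and MSH rats, whereas groups overlap widely in most other panels.

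Of the 13 non-receptor tyrosine phosphatases, 0 were called in any comparison by the brightest probe set. A dimmer Ptpn3 probe set, at a mean signal of 434.3, was called higher with PM-LD (0.55, SE 0.25) and PM-L (0.53, SE 0.25), where the brightest one was at 0.07 and 0.34. Ptpn11, which encodes SHP2, a phosphatase required for growth factor signalling, was at 4065.9, 4471.8, 2857.8 and 4420.2 with zinc sulfate and 3039.9, 3344.3, 3643.9 and 2567.9 in saline. Only zinc sulfate rat 3 overlapped saline, and the difference was 0.24 (SE 0.15, exact permutation p = 0.0857). Without that rat it was 0.32 (SE 0.14) and called. It was not called with the Gapdh ratio as a covariate or without all arrays of a ratio above 3. Ptpn1, which encodes PTP1B, the phosphatase of the insulin receptor, was at 277.8, 210.9, 276.1 and 275.1 with zinc sulfate and 180.4, 187.1, 182.5 and 232.7 in MSH. The difference of 0.53 (SE 0.27, p = 0.065, exact permutation p = 0.0286) was not called, but was with all 24 arrays in the fit or with the pair of groups alone, with the atrial covariate (0.58) and without the arrays of a Gapdh ratio above 3 (0.59). With PM-HD the gene was called only without PM-HD rat 3 (0.44). Over the 5 exposures the median of the Ptpn genes was between −0.025 and 0.17, highest with zinc sulfate, where 8 of 13 were above 0.

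Receptor-type genes held the most negative value in each comparison with saline, whereas against MSH Ppp1r16b did. Ptprcap, the partner of CD45, was lower in 3 groups. Its signal was 96.6, 91.0, 123.1 and 174.7 in saline, 91.5, 67.0, 36.3 and 23.5 with PM-HD, 123.7, 18, 80.0 and 29.7 with PM-LD, and 72.7, 32.0, 99.2 and 22.5 with zinc sulfate. The PM-HD range met the saline range in a single pair, 91.5 against 91.0, and PM-LD and zinc sulfate rats overlapped saline in 1 rat each. The log2 fold changes were −1.01 (SE 0.43), −0.96 (SE 0.45) and −0.94 (SE 0.43), with exact permutation p-values of 0.0286, 0.114 and 0.0286. MSH, with 43.5, 22.6, 95.3 and 118.8, was at −0.87 (SE 0.43), and was called without MSH rat 3 (−1.07) or 4 (−1.15).

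Each Ptprcap call rested on few arrays. Without saline rat 4, at 174.7, the differences were −0.91 with PM-HD, −0.86 with PM-LD and −0.84 with zinc sulfate, and without saline rat 3 they were −1.01, −0.96 and −0.94. None of these was called. The PM-HD call also ended without PM-HD rat 3 (−0.88) or 4 (−0.74), the PM-LD call without PM-LD rat 2 (−0.69) or 4 (−0.80) or saline rat 1 (−0.98), and the zinc sulfate call without zinc sulfate rat 2 (−0.81) or 4 (−0.70) or saline rat 1 (−0.96). Without the arrays of a Gapdh ratio above 3, PM-HD was at −0.32 (SE 0.46) and not called. The PM-LD and zinc sulfate calls ended with either covariate and with a pseudocount of 1, where the differences were −1.21 to −0.89. The PM-LD call also ended with median centring (−0.94), the trended robust prior (SE 0.46) and without the arrays of a ratio above 3 (SE 0.51), and the zinc sulfate call with all 24 arrays (SE 0.45) and the replicate block (SE 0.45).

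Most leukocyte markers were not called beside Ptprcap. Of 10 such genes 9 were measured, and 1 was called lower with PM-LD (Cd3e, −1.08) and 0 with PM-HD or zinc sulfate. Saline rats had a summed signal of these markers of 6848 to 8456, zinc sulfate rats of 6180 to 8033, PM-HD rats of 7643 to 7901, PM-LD rats of 7297 to 8726, PM-L rats of 7186 to 8231 and MSH rats of 7303 to 8811, all overlapping. The sum was mostly Cd74, at 3016 to 6892, and Ptprc, the gene of CD45 itself, was at 72.7 to 333.0. No defining marker of this list was at 0 on every array, and the part of leukocytes in the Ptprcap values was not tested. Fewer cells of a type and less RNA per cell cannot be told apart in these samples.

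Ptpre was lower with MSH and PM-L. This gene, which encodes PTP epsilon, had 64.7, 122.3, 16.2 and 154.6 in saline, 22, 25.6, 38.8 and 23.3 in MSH, and 11, 10.7, 33.0 and 45.8 with PM-L. Saline rat 3 was as low as the exposed rats and the other saline rats were above them. The differences were −1.12 (SE 0.52, exact permutation p = 0.143) and −1.29 (SE 0.53, exact permutation p = 0.0857). The first was no longer called without MSH rat 1 (−1.02), 2 (−1.12) or 4 (−1.11) or saline rat 1 (−1.11), 2 (−0.88) or 4 (−0.89), and the second without PM-L rat 1 (−1.15) or 2 (−1.16) or saline rat 2 (−1.04) or 4 (−1.05). Without the arrays of a Gapdh ratio above 3, MSH was at −0.71 (SE 0.65) and PM-L at −1.44 (SE 0.69), and neither was called. The MSH call also ended with the atrial covariate (SE 0.56), median centring (−1.11), a pseudocount of 1 (−1.43, SE 0.72) and the replicate block (SE 0.54). With zinc sulfate Ptpre was at −0.61 (SE 0.52), and at −1.11 and called without saline rat 3.

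Ptpro, which encodes a receptor phosphatase first described in kidney podocytes, was lower with both particle suspensions of 8 weeks. Saline rats had 73.1, 81.1, 102.3 and 132.6, MSH rats 89.8, 34.1, 78.4 and 71.2, and PM-HD rats 75.1, 65.5, 55.8 and 53.6. Raw signals of PM-HD overlapped saline in 1 pair and those of MSH in more, and after normalization neither group overlapped saline. The differences were −0.53 (SE 0.21) and −0.49 (SE 0.21), each with an exact permutation p of 0.0286 (two-sided). The MSH call ended without MSH rat 2 (−0.31) or saline rat 4 (−0.47), and the PM-HD call without PM-HD rat 3 (−0.42) or 4 (−0.42) or saline rat 3 (−0.48) or 4 (−0.43). Without the arrays of a Gapdh ratio above 3, PM-HD was at −0.22 (SE 0.28) and not called. Neither call held in a fit of all 24 arrays, with more spread (SE 0.32), with the trended robust prior (SE 0.27) or with a pseudocount of 64 (−0.34 and −0.32). Zinc sulfate was at −0.39 (SE 0.21), and at −0.49 and called without zinc sulfate rat 4.

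Ptprh, a receptor phosphatase known as SAP-1, was at 154.3, 124.0, 131.9 and 174.8 in saline and 116.8, 219.0, 348.6 and 245.2 with PM-L, higher by 0.52 (SE 0.24, exact permutation p = 0.143). PM-L rat 1 was below every saline rat and the other 3 above. PM-LD, at 176.6 to 210.4, lay above saline without overlap (0.43, SE 0.24, exact permutation p = 0.0286) but was not called, and zinc sulfate was above MSH by 0.50 (SE 0.23, exact permutation p = 0.0571). The PM-L call ended without PM-L rat 2 (0.47), 3 (0.36) or 4 (0.49) or saline rat 2 (0.49), 3 (0.46) or 4 (0.53). It also ended without the arrays of a Gapdh ratio above 3, where the difference was 0.24 (SE 0.30), with the atrial covariate (0.47) and with the pair of groups alone (SE 0.26). The zinc sulfate call against MSH ended without MSH rat 2 (0.50) or 3 (0.33) or zinc sulfate rat 1 (0.52), 3 (0.47) or 4 (0.41), and with median centring (0.48), the replicate block (SE 0.25) or the trended robust prior (SE 0.24). Ptprdl was called in the F test and was called in no single comparison. In PM-HD it was at 73.6 in rat 1 and 10.6 to 10.9 in the others. Without that rat, or without saline rat 2, PM-HD was called lower than saline (−1.23 and −1.13), and without saline rat 4 PM-L was called higher (0.98).

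Ptprb, the vascular endothelial tyrosine phosphatase VE-PTP, spread more within groups than between them. Its range was narrow in saline, at 2724.2 to 3657.8, and in MSH, at 3030.1 to 3486.3. It was wide with zinc sulfate, at 1602.3 to 6003.2, in PM-HD, at 2458.9 to 6519.6, in PM-L, at 1721.0 to 4532.0, and in PM-LD, at 1627.8 to 3830.7. In all groups but MSH the highest value came from the array of highest Gapdh ratio. No comparison called it with all arrays. Without zinc sulfate rat 3, zinc sulfate was below saline by 0.67 (SE 0.30) and below MSH by 0.78 (SE 0.30), and without PM-LD rat 3 PM-LD was below saline by 0.95. Of 8 endothelial markers 6 were measured and 0 were called, and their summed signal overlapped among all groups. It was 10130 to 15580 for saline rats, 8666 to 23270 for zinc sulfate rats, 9292 to 18480 for PM-HD rats, 6994 to 16580 for PM-L rats, 6944 to 15760 for PM-LD rats and 12970 to 15510 for MSH rats. Their part in the Ptprb and Ppp1r16b values was not tested. Ptprm, a phosphatase of cell contacts, and Ptpra, an activator of Src kinases, were not called, with differences from saline of 0.07 to 0.32 and 0.04 to 0.29. Without rat 2 of the group concerned, Ptprm was called higher with MSH (0.44) and PM-L (0.44), and Ptpra with PM-L (0.36).

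A dimmer Ptprs probe set, of those counted above, was higher in 3 of the 4 groups that received soluble zinc. Ptprs encodes PTP sigma, a receptor for matrix proteoglycans. The probe set read 360.1, 386.2, 361.2 and 288.9 in saline, 233.6, 352.7, 253.8 and 317.4 in MSH, 472.0, 464.1, 449.1 and 623.4 with zinc sulfate, and 453.0, 506.1, 536.3 and 495.6 with PM-L. Zinc sulfate and PM-L rats all lay above saline and MSH. The difference was 0.55 for zinc sulfate (SE 0.19), 0.50 for PM-L (SE 0.18), 0.49 for PM-LD (SE 0.18) and 0.87 for zinc sulfate against MSH (SE 0.19, limma adjusted p = 0.393). The exact permutation p was 0.0571 for PM-LD and 0.0286 for the others. PM-HD, at 341.5 to 419.7, was at 0.09 (SE 0.19). Those of zinc sulfate were called without any 1 array and in each of the 11 other settings, the PM-L call ended without saline rat 4, and the PM-LD call without PM-LD rat 2 or saline rat 4. Without the arrays of a Gapdh ratio above 3 neither the PM-L nor the PM-LD call held, at 0.39 (SE 0.22) and 0.30 (SE 0.19). A further dim Ptprs probe set, at a mean signal of 216.3, was called only with PM-LD (0.58, SE 0.19). The brightest Ptprs probe set was at −0.009 with zinc sulfate and −0.10 with PM-L.

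**Figure D3:**
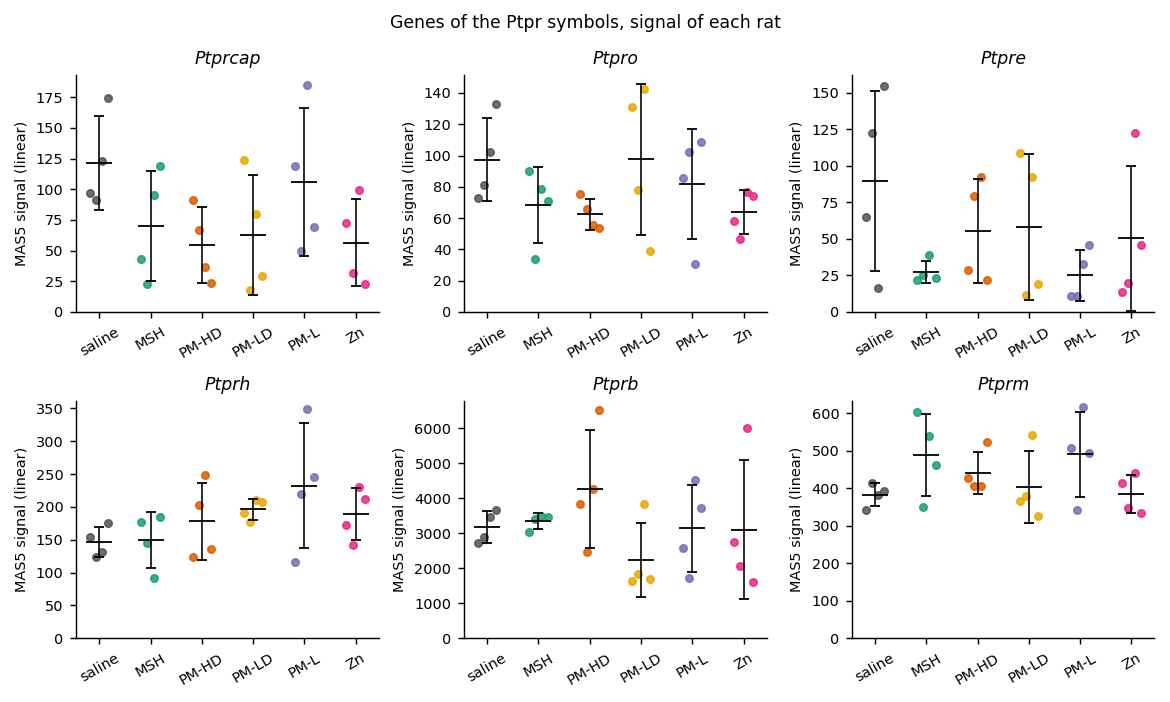
Linear MAS5 signal (vertical axis) of 6 genes with Ptpr symbols in the 6 groups (horizontal axis), with 1 point per rat and bars for the mean ± SD of 4 rats. Ptprcap falls to 22.5 in zinc sulfate rat 4 and 18 in PM-LD rat 2, and Ptprb reaches 6519.6 in PM-HD and 6003.2 with zinc sulfate in single rats.

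MAP kinase phosphatases were not called in any comparison. Dusp1, the first-described member, which switches off p38, JNK and ERK in the nucleus, was at 2262.6, 4158.9, 1504.4 and 1964.6 in saline and 1744.8, 1500.0, 1652.0 and 2038.3 with zinc sulfate. Saline rat 2 was above every other rat of the study, and the ranges overlapped. The log2 fold changes of Dusp1 were −0.34 with MSH, −0.35 with PM-HD, −0.09 with PM-LD, 0.05 with PM-L and −0.42 with zinc sulfate (SE 0.30 to 0.31). Dusp4 was dim, at 27.3 to 94.8 in saline, and ran from 0.14 with zinc sulfate to 0.61 with PM-L (SE 0.44 to 0.46). Dusp5 was between −0.08 and 0.55 (SE 0.34 to 0.41), with high rats at 438.5 and 404.8 in PM-LD, 416.5 in PM-L and 395.2 with zinc sulfate.

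Dusp6, which acts on ERK in the cytoplasm, was at 737.1, 1104.9, 915.2 and 1064.6 in saline and 524.9, 589.9, 1194.0 and 719.0 with zinc sulfate. The 3 zinc sulfate rats other than rat 3 lay below every saline rat. The difference was −0.33 (SE 0.22, exact permutation p = 0.286), and −0.56 (SE 0.19) without rat 3, then called, and likewise −0.57 against MSH (SE 0.19). Rat 3 had the highest Gapdh ratio of its group, at 5.58, whereas saline rat 4, at 5.48, stayed in that fit. With the ratio as a covariate, or without all arrays of a ratio above 3, Dusp6 was called in neither comparison. Across the 6 MAP kinase phosphatases the median log2 fold change was −0.27 with zinc sulfate, −0.026 with MSH, −0.047 with PM-HD, 0.15 with PM-LD and 0.13 with PM-L. The 8 other dual-specificity genes were at −0.11 with zinc sulfate and −0.15 with PM-L, where 0 of 8 were above 0.

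The dual-specificity class was also summarised rat by rat, as the median deviation of its 14 genes from their mean in the saline rats. The 4 zinc sulfate rats were at −0.35 to −0.10 and the saline rats at −0.062 to 0.19, with no overlap. The saline rats were measured against their own mean, which favours a separation from them. PM-HD rats, at −0.24 to −0.035, and PM-L rats, at −0.43 to 0.12, overlapped both. MSH rats, at −0.083 to 0.069, overlapped saline only. The PM-LD range, −0.104 to 0.156, overlapped saline and met the zinc sulfate range at −0.104. Over all genes the zinc sulfate rats were at −0.007 to 0.016 and the saline rats at 0.002 to 0.027. For the serine/threonine class the zinc sulfate rats were at −0.028 to 0.14 and the saline rats at −0.032 to 0.046, and for the tyrosine class at −0.087 to 0.16 and −0.11 to 0.17. Without 1 array the class median with zinc sulfate was between −0.26 and −0.081. No p is given for these summaries, because the genes of a class were chosen with results of these data known.

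**Figure D4:**
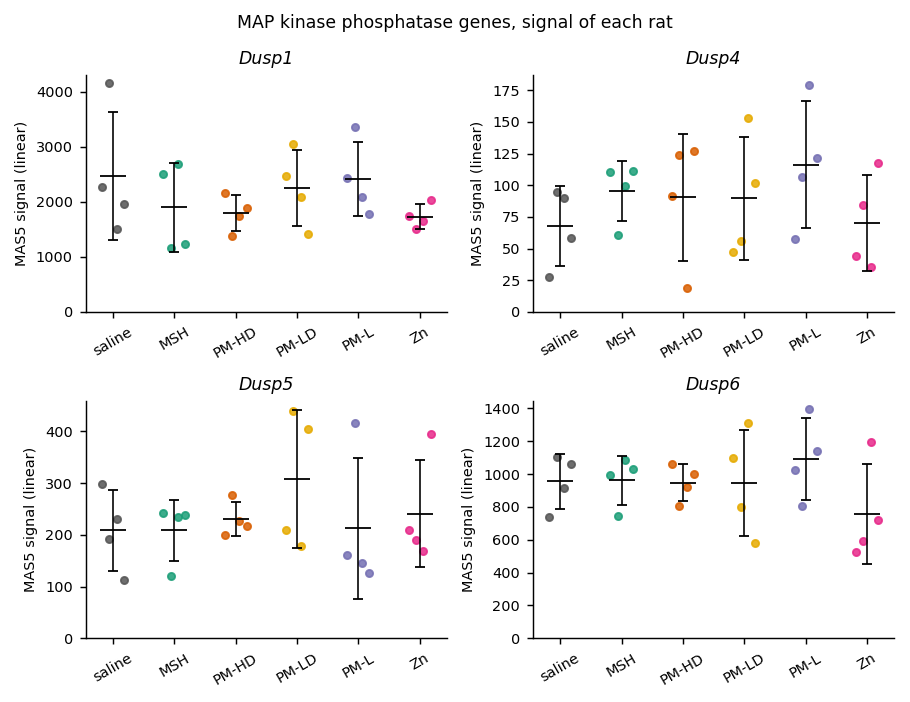
Linear MAS5 signal (vertical axis) of 4 MAP kinase phosphatase genes in the 6 groups (horizontal axis), with 1 point per rat and bars for the mean ± SD of 4 rats. Dusp1 is highest in saline rat 2, at 4158.9, and in Dusp6 zinc sulfate rat 3, at 1194.0, lies above the other zinc sulfate rats, at 524.9 to 719.0.

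The promoter of Dusp1 is shown because the gene is an immediate early gene whose promoter is known for a cyclic AMP response element. The element TGACGTCA begins 124 bases before the start and the E-box CACGTG 107 bases before it, both in capitals. Both strands were searched, and the motifs do not overlap there. The cyclic AMP response element occurred in 7 of 95 phosphatase promoters (7.37%) and in 1.59% of all promoters, and the E-box in 4 (4.21%) and in 5.59%. Besides Dusp1 the promoters with the cyclic AMP response element were those of Dusp11, Ppp1r12c, Ppp1r15a, Ppp2ca, Ppp2r2d and Ptprs. Both motifs contain a CpG, of which phosphatase promoters had a median of 20 and all promoters of 5, and these shares were not tested. The levels of Dusp1 given above were not called in any group.
Dusp1 promoter, chr10:17184603-17184852 (+ strand): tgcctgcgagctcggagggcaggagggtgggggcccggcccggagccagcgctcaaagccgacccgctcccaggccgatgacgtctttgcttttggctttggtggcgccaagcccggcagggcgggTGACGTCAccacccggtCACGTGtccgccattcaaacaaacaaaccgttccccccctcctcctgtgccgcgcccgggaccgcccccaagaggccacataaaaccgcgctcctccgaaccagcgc

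Within groups, phosphatase genes varied with the Gapdh 3′/5′ ratio about as often as all genes did. This was tested after the data had been seen, as a slope of each probe set on the log2 ratio within groups over all 24 arrays. At a limma adjusted p under 0.05 the slope was found in 47 of 115 phosphatase genes, 21 upward and 26 downward, where 38.7% of all genes had one (19.4% upward and 19.3% downward). The number was 41 to 48 when any 1 array was left out. By class it was 35 of 69 serine/threonine, 8 of 32 tyrosine and 4 of 14 dual-specificity genes, with 7 of 9 Ppm1 genes and 7 of 11 catalytic subunits. All 4 Ptpn genes with a slope went down and all 4 Ptpr genes went up. Ptpre (limma adjusted p = 0.18), Ptprdl (0.22) and Ptprcap (0.41), which spread widely within groups, did not pass this test.

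Ppp1r16b rose by 0.62 for each doubling of the ratio (SE 0.07, limma adjusted p = 8.40e-07) and had its highest value on the array of highest ratio in all 6 groups. Ptprb rose by 0.68 (SE 0.08) and Ppm1f, a phosphatase of calcium/calmodulin-dependent kinase, by 0.41 (SE 0.045). Ppp5c fell by 0.31 (SE 0.07) and was lowest on that array in all 6 groups, as was Ppp2r3a, a PP2A subunit. Dusp5 fell by 0.57 (SE 0.11) and Dusp6 rose by 0.33 (SE 0.07). Ppp3cc had a slope of −0.02 (limma adjusted p = 0.92), although its highest value came from the array of highest ratio in 4 groups (saline, MSH, PM-HD and PM-L). With the ratio as a covariate, zinc sulfate differed from saline in Ppp3cc by 0.85, and from MSH by 0.70 in Ppp3cc, 0.41 in Ppp5c, −0.67 in Ppp1r16b and −0.37 in Ppp2r5c, of which the last was within the fold limit and no longer called.

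Zinc sulfate rat 3 was the array of highest ratio in its group. Without it, 13 phosphatase genes were called against saline in place of 4, and 11 against MSH in place of 7. The share of all genes called rose as well, from 4.01% to 7.96% and from 6.07% to 14.7%. Leaving out this array also made the groups unlike in the ratio. The remaining zinc sulfate arrays were at 1.43 to 1.52, MSH arrays at 2.02 to 3.31 and saline arrays at 1.35 to 5.48. Of the genes with a slope given above, Ppp1r16b, Ptprb and Dusp6 were gained against saline and Ppm1f against MSH. The part of the ratio in these gains was not tested. The genes gained against saline included Ppp1r18, a PP1 subunit of the actin skeleton (−0.64), Ptpn3 (0.60), Ptprd (−0.42) and Ptprv (−0.99), besides Ppp1r16b, Dusp6, Ptpn11, Ptprb and Ppp4r3b (−0.43). The mean log2 value of the atrial transcripts, by contrast, gave a slope in 0 of 115 phosphatase genes (0.048% of all genes) at adjusted p under 0.05. Nppa, the gene of atrial natriuretic peptide, was called higher with PM-L (1.41, SE 0.59), and its part in the PM-L values was not tested.

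**Figure D5:**
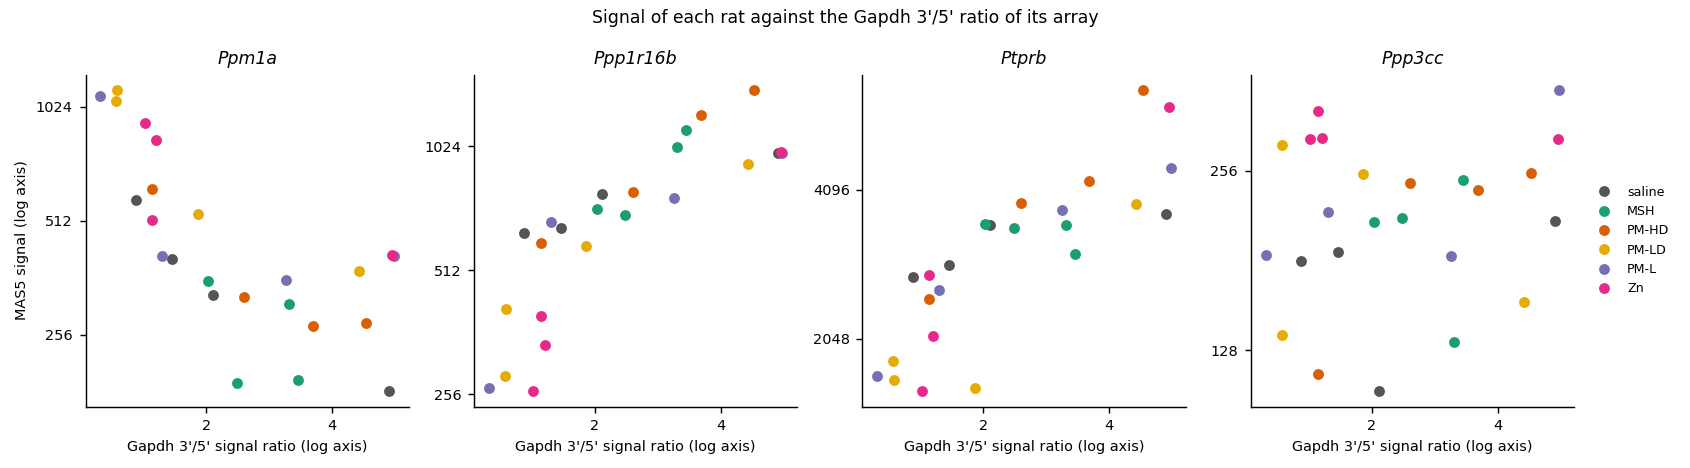
Linear MAS5 signal (vertical axis, log scale) of 4 phosphatase genes against the Gapdh 3′/5′ signal ratio of the array (horizontal axis, log scale), with 1 point per rat coloured by group. Ppm1a falls with the ratio (slope −0.68), and Ppp1r16b (0.62) and Ptprb (0.68) rise with it. Ppp3cc has a slope of −0.02, with the 4 zinc sulfate rats at 289.0 or above. The slopes were fitted within groups to the normalized values, not to the raw signals shown.

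Lists of genes around the phosphatases are short beside the 2.99% to 6.07% of all genes called in a comparison. Of 28 genes of the MAP kinase cascade 17 were measured, and 0 were called in any comparison, with medians of −0.023 to 0.079. Of 19 immediate early genes 18 were measured, and against saline 1 was called lower each with MSH (Fos, −1.07, SE 0.44), PM-HD (Jun, −0.61, SE 0.14) and zinc sulfate (Klf4, −0.92, SE 0.27). These 3 genes, and Lum, Dcn, Col3a1, the smooth muscle markers, Nfatc4, Mtmr7, Cdc25a, Cdc25b and Cd3e, are named after their values were seen. The median of the 18 immediate early genes was −0.050 with MSH, −0.37 with PM-HD and −0.29 with zinc sulfate, and −0.21 with both PM-LD and PM-L. Of 15 genes of calcineurin and NFAT signalling 10 were measured, with medians of −0.20 to −0.054 against saline and 1 call, Nfatc4 lower with PM-LD (−0.49, SE 0.19). All 11 PP1 and PP2A targets of the heart, such as Pln and Ryr2, were measured, and 0 were called.

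Among other phosphatases outside the symbol rule, 25 of 37 were measured. Mtmr1, which encodes a myotubularin lipid phosphatase, was called higher with PM-LD (0.41, SE 0.15), PM-L (0.46, SE 0.15) and zinc sulfate (0.38, SE 0.15) and in zinc sulfate against MSH (0.58, SE 0.15). Mtmr7, its relative, was lower with zinc sulfate (−1.09, SE 0.24), and with PM-L Cdc25b was higher (0.44) and Cdc25a lower (−0.61), both cell cycle phosphatases of cyclin-dependent kinases. The rest of this list was not called against saline, and its median was between −0.042 and 0.073.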

How the data were processed

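The deposited files hold 1 linear signal intensity per probe set and array, made by the authors with MAS5 and scaled so that each array has the same trimmed mean of 500.1. The study's own methods describe another summary (RMA), which was not used here. Of 15923 probe sets, 57 controls were left out, which left 15866: 12783 with 1 symbol (10411 genes), 312 with several and 2771 unnamed. Signals were taken as log2(signal + 16), quantile normalized and fitted with limma 3.58.1 in R 4.3.3, with an unadjusted p under 0.05 and a rise or fall of more than 25% as the call. Adjusted p-values are Benjamini-Hochberg over all probe sets. Permutation tests enumerated 70 arrangements of the normalized values. The fits were tested on simulated data. The number of arrays limits the precision. The limma p-values weigh a difference of means against the spread between rats, each measured on 1 array.

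Members, pathway lists and cell type markers were chosen with earlier results of these data known. Genes are named with their values if called in at least 2 comparisons with saline, if among the 6 called members of lowest p in a comparison or the 6 of lowest p in the F test, if a PPP catalytic subunit, or if on a short list of inducible Dusp genes and of phosphatases the study names, 36 in all. Genes named only for a slope on the Gapdh ratio or for a change without zinc sulfate rat 3 were picked after their values were seen. The slopes on the Gapdh ratio and on atrial transcripts, and the dimmer probe sets described, were added after seeing the data. A probe set shared by Ppp2ca and Ppp2cal1 was left out, and Dusp10 and Ppp1r3c were not analysed here. Promoter sequences are from RefSeq, assembly GRCr8. Symbols of all 115 genes matched RefSeq, and 95 had a promoter entry. The alternatives were other pseudocounts (1 and 64), median centring, a mean signal of at least 100, averaging over a gene's probe sets, a trended robust prior, other sets of arrays, a replicate block, Gapdh or atrial covariates, and each array left out.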

Additional observations from a re-analysis of the deposited data

Results flagged for a closer look

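Single rats that stood far from the other 3 of their group (a gap over 0.83 of the group's range, Dixon's 95% critical value for 4 values) were found in 20 of 216 groups of a named gene, where chance gives about 10.8. Ppm1a was high in PM-HD rat 2 (619.9, others 269.9 to 323.2) and PM-L rat 2 (1090, others 357.7 to 414.3). Dusp5 was low in MSH rat 2 (121.1, others 234.3 to 241.9) and high in PM-L rat 2 (416.5, others 126.6 to 160.7). Ppp3cc was low in PM-HD rat 2 (116.7, others 237.8 to 254.2), and zinc sulfate rat 1 (322.6) stood above 3 rats that differed little (289.0 to 290.4). Ppp3cb was low in PM-HD rat 4 (1436, others 1557 to 1581) and high in PM-L rat 1 (1772, others 1439 to 1495).

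Ptprb was low in MSH rat 1 (3030, others 3420 to 3486) and high in PM-LD rat 3 (3831, others 1628 to 1843). Ppp2cb was high in zinc sulfate rat 3 (2282, others 1271 to 1354). Ptpn1 was high in MSH rat 4 (232.7, others 180.4 to 187.1) and low in zinc sulfate rat 2 (210.9, others 275.1 to 277.8), and Ptpn11 was low in MSH rat 2 (2825, others 3349 to 3446). Ptprdl was low in MSH rat 2 (38.3, others 81.7 to 88.8) and high in PM-HD rat 1 (73.6, others 10.6 to 10.9). Ppp1r12c was high in MSH rat 2 (1103, others 848.2 to 878.6), Ppp1r14c low in saline rat 1 (123.8, others 226.0 to 240.5), Ppp2r2b low in saline rat 3 (10.6, others 22 to 23.6) and Ppp2r5c high in PM-L rat 4 (3920, others 3039 to 3180).

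The effect of zinc sulfate differed from that of MSH, by limma's test of the difference itself at an unadjusted p under 0.05 and a rise or fall of more than 25%, in 7 of 115 genes, where 6.07% of all genes passed. These were Ppm1a (1.36 on the log2 scale), Ppp3cc (0.70), Ppp5c (0.54), Ptprh (0.50), Ppp1r16b (−0.89), Ppp2r5c (−0.455) and Ppp2r2b (−0.42). None of the 7 passed an adjusted p of 0.05.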

How the results depend on the processing

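Of the 24 calls, 3 held without any 1 array (Ppp3cc with zinc sulfate against saline and against MSH, and Ppm1a against MSH), 3 held in every other setting run for them (Ppp1r12c with PM-LD, and Ppm1a and Ppp1r16b with zinc sulfate against MSH), and 0 changed sign. The share of all genes called under the same setting stands in brackets. The count of called genes with MSH was 3 (2.99%), and became 5 with the Gapdh ratio as a covariate (4.14%), 6 with the mean of all probe sets (3.28%), 0 at a mean signal of at least 100 (2.38%), and 1 each with the replicate block (3.12%), the trended robust prior (2.84%) and without the arrays of a Gapdh ratio above 3 (4.81%). With PM-HD it was 3 (3.32%), then 6 with the Gapdh covariate (4.52%) and 1 at a mean signal of at least 100 (2.64%), and with PM-L it was 3 (3.84%), then 8 with the Gapdh covariate (5.4%) and 5 with median centring (3.69%). With zinc sulfate it was 4 (4.01%), then 2 in the fit of all 24 arrays (3.7%), at a mean signal of at least 100 (3.23%), with a pseudocount of 1 (4.05%) and with the replicate block (4.02%), and for zinc sulfate against MSH it was 7 (6.07%), then 12 without the arrays of a Gapdh ratio above 3 (13.5%). For the F test it was 5 (4.43%), then 2 with the atrial covariate (4.55%) and 3 at a mean signal of at least 100 (4.11%). With each array left out, the counts for MSH ran from 0 (without saline replicate 4, 3.59%) to 5 (without MSH replicate 1, 3.01%). For PM-HD they ran from 1 (without PM-HD replicate 3, 3%) to 6 (without saline replicate 2, 3.53%). For PM-LD they ran from 2 (without PM-LD replicate 2, 3.3%) to 8 (without PM-LD replicate 3, 5.15%). For PM-L they ran from 2 (without saline replicate 3, 3.61%) to 6 (without saline replicate 1, 5.12%). For zinc sulfate they ran from 2 (without zinc sulfate replicate 4, 3.32%) to 13 (without zinc sulfate replicate 3, 7.96%). Against MSH they ran from 3 (without zinc sulfate replicate 2, 4.83%) to 11 (without zinc sulfate replicate 3, 14.7%). For the F test they ran from 2 (without MSH replicate 1, 3.82%) to 10 (without PM-LD replicate 3, 5.08%). The cause of these shifts was not tested. Of 354 recomputed class medians 2 moved beyond the spread between rats, both of the serine/threonine class (PM-L, −0.069 without PM-L replicate 4, and zinc sulfate against MSH, 0.13 with median centring). The replicate numbers were not taken as a pairing of the rats, since no label links them and not every same-numbered pair correlated. The deviations of 60 same-numbered pairs correlated between −0.26 and 0.523 (median 0.056), with 22 above 0.1, and those of 180 other pairs between −0.503 and 0.406 (median −0.022), with 36 above 0.1. With the number as a block the counts against saline were 1 with MSH (3.12%), 3 with PM-HD (3.49%) and 5 with PM-LD (4.04%). They were 4 with PM-L (4.16%) and 2 with zinc sulfate (4.02%), then 5 for zinc sulfate against MSH (6.37%) and 6 for the F test (5.13%). Signals under 100, which 17 of the genes have, are the least certain.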
